A study of Mus musculus with 9 samples.

Results

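Sites bound by CTCF in both B-lineage populations but called for the cohesin subunit Rad21 in none of 3 cell types were examined. Overlapping CTCF peaks (1 bp or more) of pre-B cells and of IL7-cultured pro-B cells were merged on chromosomes 1 to 19, which gave 69553 sites. A peak of both lists was present at 39321 of them, referred to as shared sites. Of the shared sites, 10985 overlapped no Rad21 peak of pre-B cells, DN thymocytes or DP thymocytes, and 28336 overlapped at least 1. The sites were thus chosen by the peak calls of all 5 lists, and the share of shared sites without Rad21, 27.9% (95% exact Clopper-Pearson interval, 27.5 to 28.4%), describes the choice and is no finding.

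Each antibody and cell type had 1 ChIP-seq library, so no spread between animals is known, sites of 1 library are not replicates, and no test between sets of sites was run. Intervals cover counting error only. All mice were C57BL/6 and RAG deficient, so that the antigen receptor loci were unrearranged. Pro-B cells came from the bone marrow of RAG1-/- mice and were grown for 7 days in medium with the cytokine IL7. Pre-B cells, labelled RAG-/-µ+, came from RAG-/- bone marrow with a rearranged IgM transgene. The bone marrow donors were 6 to 14 weeks old and of both sexes. CD4-CD8- (DN) thymocytes came from Rag1-/- mice and CD4+CD8+ (DP) thymocytes from Rag1-/- mice carrying a rearranged TCRb transgene, both 4 to 8 weeks old. RAG deficiency, with a transgene in pre-B cells and DP thymocytes, blocks differentiation. Culture in IL7 limits the pro-B cells as a model of fresh ones, since the study describes their CTCF pattern as closer to that of pre-B cells and urges care in its use. The promoters that drive the transgenes and the number of animals per library are not given in the sources used here. Peak lists hold no expression, so the labelled cell types could not be checked against marker genes. Rad21 in IL7-cultured pro-B cells was not analysed here.

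CTCF is a zinc finger protein that binds a long, asymmetric DNA motif. Cohesin is a ring-shaped complex, of which Rad21 is the subunit that closes the ring, and it extrudes DNA into loops until it meets bound CTCF, where it accumulates. In lymphocyte progenitors such loops bring distant V genes towards the joining segments, and most strong CTCF sites in many cell types also carry cohesin. CTCF also lies at many promoters. In rodents, many CTCF motifs were carried across the genome by B2 elements, a family of short interspersed repeats.

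The CTCF motif was searched as the HOMER de novo consensus of the study, 12 bases long, on both strands in the central 300 bases of the pre-B peak. Some of the strongest sites and promoter sites that had a match with at most 2 mismatches are shown first, to make plain that sites without Rad21 include sequence of the ordinary CTCF type. Capitals mark the match, each sequence is 30 bases read 5′ to 3′ on the stated strand of mm9, and names are those of the gene with the nearest annotated start.
Hif1an, chr19:44637209-44637238, minus: tgaaggagcGCTCCCTAGCGGtgacctgca
Zfp90, chr8:108939120-108939149, minus: agaggtcctGCCTCCTAGTGGggggctgca
Ext2, chr2:93662741-93662770, plus: tagcgccgcGCCCCCTGCTGGacaggagga
Erc2, chr14:28617289-28617318, minus: gaaaactccACCCCCTAGTGGgggataggt
Iqcf5, chr9:106434381-106434410, minus: agaaagcctGCCTCCTTGTGGgcagagctg
BC003266, chr4:126920904-126920933, minus: tagtatagcGCCCCCTGACGGctcggaggc
Among these, the matches at Zfp90, Ext2 and Erc2 had 1 mismatch and the others 2. For comparison, the strongest sites with Rad21 in all 3 lists included the following.
Pik3c2b, chr1:134936157-134936186, minus: gtttagcctGCCCTCTAGTGGacacattaa
Bcan, chr3:87791211-87791240, minus: ggagaggggGACCCCTGGTGGcctcatttt

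A second kind of sequence made up a larger share of the sites without Rad21 than of the sites with it. The most frequent best match of both groups was the word GCCCTCTTCTGG, with 3 mismatches to the consensus, and the second most frequent at sites without Rad21 was GCCACCATGTGG, also with 3. Examples are the highest ranked sites without Rad21 that hold each word, printed in the same way.
Nab2, chr10:127108494-127108523, minus: ggatccatcGCCCTCTTCTGGcctctacag
AC116121.1, chr8:59095234-59095263, minus: tctaatgcaGCCCTCTTCTGGccgccccgg
Alg8, chr7:104510175-104510204, plus: aggttatgcGCCACCATGTGGttgctggaa
S100a7a, chr3:90448120-90448149, plus: tggttgaaaGCCACCATGTGGgtactggaa
The Nab2 site lay in an intron and the others between genes. Their pre-B scores were above 83.4% (Nab2), 80.5% (AC116121.1), 83.5% (Alg8) and 64.7% (S100a7a) of the pre-B list. These words were singled out after their counts had been seen, and the results on them are given below.

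The 5 lists differed in length and in the score at which they ended, and the absence of a Rad21 peak means only that none was called. The CTCF lists held 42250 (pre-B) and 71080 (IL7-cultured pro-B) peaks. The Rad21 lists held 30488 (pre-B), 9701 (DN) and 36743 (DP) peaks. The lowest score kept was between 50 and 86.45, the read depth behind each list is unknown, and scores were used only as ranks within 1 list. Pre-B Rad21 was called at 65.0% of shared sites, DP Rad21 at 53.5% and DN Rad21 at 23.2%. The numbers with Rad21 in 1, 2 and 3 lists were 9479, 10359 and 8498. Sites with CTCF in only 1 B-lineage list more often lacked Rad21: 54.1% of 1656 sites called in pre-B cells alone and 85.3% of 28576 called in IL7-cultured pro-B cells alone.

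Shared sites without Rad21 were mostly low in the pre-B CTCF list. The score percentile of a site is the share of the list's peaks that score lower. Its median was 23.4 (22.9 to 24.0) for the 10985 sites without Rad21, 45.2 for sites with Rad21 in 1 list, 65.25 in 2 and 82.35 in 3. In the IL7 list the corresponding medians were 55.2 (54.8 to 55.7), 66.1, 77.8 and 88.4. The lower and upper quartiles of the sites without Rad21 were percentiles 11.6 and 37.97 in the pre-B list and 41.4 and 66.5 in the IL7 list. Percentiles of the 2 lists are not on 1 scale, since the IL7 list also held the 28576 sites with no pre-B peak. All lists were also cut to an equal number of top peaks, 9701, the length of the DN list, which left 1499 shared sites without Rad21. Ranked within the cut lists, the median pre-B percentiles were 43.4 without and 63.2 with Rad21. This is another scale than that of the 23.4 and 64.9 in the full lists. In the full lists only 161 shared sites with both percentiles of at least 75 lacked Rad21. Most of the 1499 thus have a Rad21 peak in the full lists and are not among the sites reported here. The ranks of the 2 lists followed each other less closely at sites without Rad21 (Spearman's rho 0.605, n = 10985 sites) than at those with it (0.825, n = 28336), a description across sites of 1 library pair in which the first group covers a narrower range of scores.

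**Figure D1:**
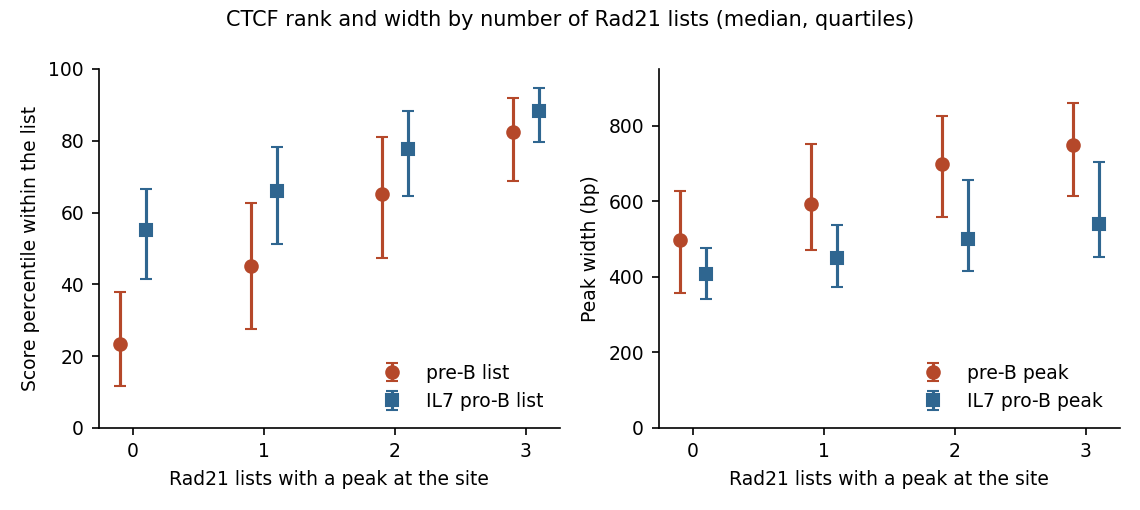
Median score percentile within each CTCF list (left, 0 to 100) and median CTCF peak width in bp (right) of shared sites with a Rad21 peak in 0, 1, 2 or 3 lists. Points are medians and bars run from the lower to the upper quartile over sites. In pre-B cells the median percentile went from 23.4 at 0 lists to 82.35 at 3, and the median width from 498 to 750 bp.

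The shared sites were divided by pre-B score into 10 classes of equal size. In the lowest class 71.0% (69.6 to 72.4%) lacked Rad21, in the fifth 25.3%, in the eighth 3.79% and in the highest 0.763% (0.515 to 1.09%, 30 sites). By IL7 score, the share went from 57.3% in the lowest class to 2.44% (96 sites) in the highest. The fall was steeper by pre-B score. Pre-B cells are the only B-lineage population of which a Rad21 list was used, and the CTCF lists also differ in length (42250 and 71080 peaks). What the steeper fall goes with was not tested.

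**Figure D2:**
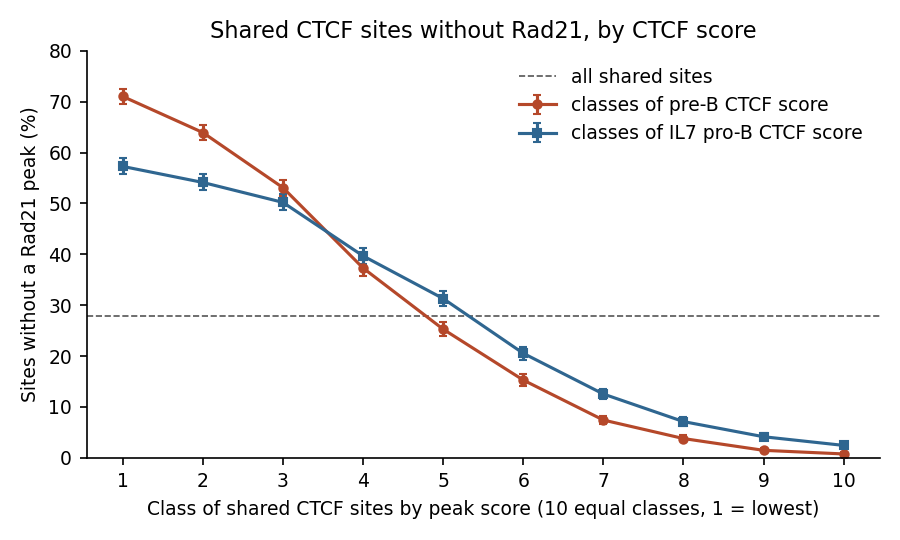
Share of shared CTCF sites without a Rad21 peak (vertical axis, %) in 10 equal classes of the pre-B score (circles) and of the IL7 pro-B score (squares), from the lowest to the highest. Bars are 95% exact intervals and the dashed line is the 27.9% of all shared sites. The share fell at every step on both scales, from 71.0 to 0.763% and from 57.3 to 2.44%.

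CTCF peaks at sites without Rad21 were also narrower. The median pre-B peak width was 498 bp (495 to 503) against 681 bp (677 to 684) with Rad21, and the median IL7 peak width was 407 against 492 bp. With all lists cut to an equal number of top peaks, the pre-B medians were nearly equal, at 806 and 809 bp. Most sites of that cut set have a Rad21 peak in the full lists, so it cannot check the width of the sites reported here. Higher-scoring peaks are wider, so widths were set side by side within 4 equal classes of the pre-B score. The medians without and with Rad21 were 441 and 495 bp in the lowest class, 546 and 576 bp in the second, 706 (690 to 720) and 695 bp (689 to 701) in the third, and 748 (713 to 797) and 796 bp (792 to 800) in the highest. The differences were smaller within classes than over all sites, and in the upper 2 classes the intervals overlapped. The classes held 6398, 3457, 978 and 152 sites without Rad21.

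Few sites lay near the limit of the rule. Of the sites without Rad21, 70 had a Rad21 peak within 100 bp and 1000 (9.10%) within 1000 bp. The median distance to the nearest Rad21 peak of any list was 10138 bp (9760 to 10586), and 92.3% had one within 100000 bp. The nearest misses were a site in an intron of Sdk2, with 1 bp between the site and a Rad21 peak, and sites in introns of Susd3 (8 bp) and 2310050B05Rik (16 bp). On the other side, sites near Rhot1 and Fos overlapped a Rad21 peak by 2 bp and one near Hist2h4 by 4 bp. The median overlap of sites with Rad21 was 564 bp, and only 36 of 28336 overlapped by 100 bp or less.

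**Figure D3:**
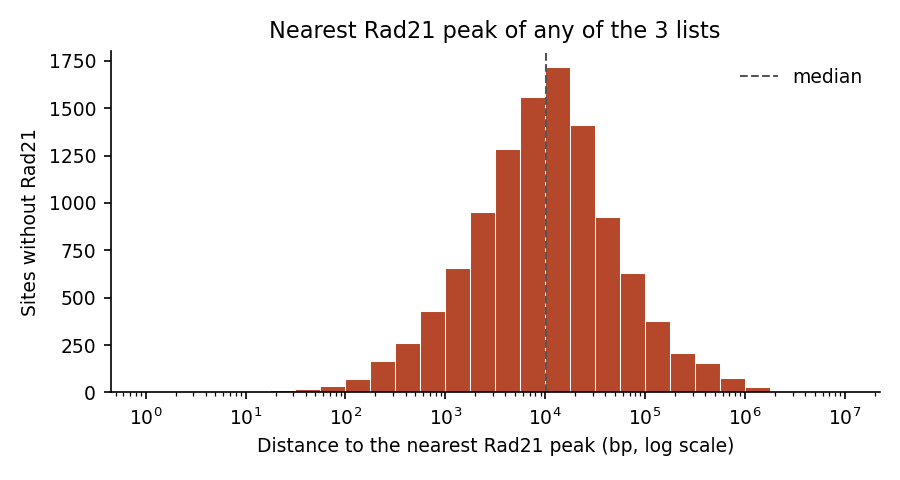
Number of shared CTCF sites without Rad21 (vertical axis) by distance in bp to the nearest Rad21 peak of any of the 3 lists (horizontal axis, log scale). The dashed line is the median, 10138 bp. The bulk of the sites lay between 1000 and 100000 bp from a Rad21 peak and few lay within 100 bp.

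Sites without Rad21 were spread over all autosomes, from 23.7% of the shared sites of chromosome 15 to 33.4% (31.7 to 35.2%) of those of chromosome 5. The median pre-B percentile of all shared sites was 49.6 on chromosome 5 and 53.2 on chromosome 15. The distance from a site without Rad21 to the next shared CTCF site was similar to that of sites with Rad21, with medians of 8975 and 8655 bp. Windows of 100 kb with the most such sites began on chromosome 5 at 147300727, with 12 sites without Rad21 beside 2 with it, and on chromosome 2 at 168668259 (10 beside 3). Next were those on chromosome 17 at 30785865 (9 beside 2), chromosome 5 at 130473786 (9 beside 7) and chromosome 1 at 88498141 (8 beside 5). At least 3 more windows, on chromosomes 11 and 16, also reached 8 sites without Rad21. The window with 12 lies among Gm3402, Gm3404, Gm3409 and Gm3415, predicted genes with serially numbered names. Reads that map to up to 3 places were kept, so near-identical copies can share reads and a site there is uncertain. Over all sites without Rad21, 56 (0.510%) had central 100 bases identical to those of another shared site. The genes with the most sites without Rad21 inside them were Gm20388 (52, beside 170 with Rad21), Fgfr2 (31 beside 54), Fry (15 beside 12), Camta1 (14 beside 11) and Dnahc8 (13 beside 6). Over all shared sites the numbers were 10985 beside 28336, and Gm20388 lay below that proportion. The annotated spans of Gm20388 and Fgfr2 are 4435 and 3009 kb. Per 100 kb the numbers without Rad21 were 1.17 and 1.03, against 5.18 in Dnahc8, an axonemal dynein heavy chain gene. The chromosome 17 window above lies inside Dnahc8.

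By gene place, sites without Rad21 differed little from the others as a whole. An annotated start lay within 1000 bp of 15.7% (15.01 to 16.4%) of them and of 18.7% (18.2 to 19.2%) of sites with Rad21. Elsewhere, 3.51% lay in exons, 40.85% in introns and 39.95% between genes, against 4.13%, 36.3% and 40.9% with Rad21. A start lay inside the site at 6.92 and 10.6%, and no start lay within 50 kb of 13.45 and 11.3%. The small difference in promoter share was not stable. It was turned round when the DP list was left out (19.8% against 16.9%) and when pre-B Rad21 alone was used (19.8% against 16.8%). The order was also turned round with all lists cut to an equal number of top peaks (31.9% against 18.6%). Most sites of that cut set have a Rad21 peak in the full lists, so it cannot check the share of the sites reported here. The sites that move when the DP list is left out, 2537 sites with Rad21 called in DP thymocytes alone, had a promoter at 37.4% (35.5 to 39.3%). Those with Rad21 in pre-B cells alone, 6871 sites, were at 13.1%. Whether this goes with the cell type or with the library cannot be told apart.

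The promoter share varied with score in both groups. Among sites without Rad21 it was 14.4% in the lowest of the 4 classes of pre-B score, 15.45% in the second, 21.9% in the third and 33.55% (26.1 to 41.7%, 51 of 152) in the highest. Among sites with Rad21 it was 24.5, 17.8, 15.85 and 19.8%, so that both groups rose from the third class to the highest. Where a site lay in the top 10% of both CTCF lists, a promoter was present at 20 of 28 sites without Rad21 (71.4%, 51.3 to 86.8%) and at 824 of 3228 with it (25.5%, 24.0 to 27.1%). CpG density moved with this. The promoters without Rad21 had a median CpG observed over expected of 0.385 in the lowest class and 0.645 in the highest, while promoters with Rad21 went from 0.640 to 0.438. Windows like CpG islands, with G+C of at least 50% and a ratio of at least 0.6, made up 14 of those 28 top sites without Rad21 and 13.3% of the top sites with it. The part of CpG density in the scores was not tested.

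**Figure D4:**
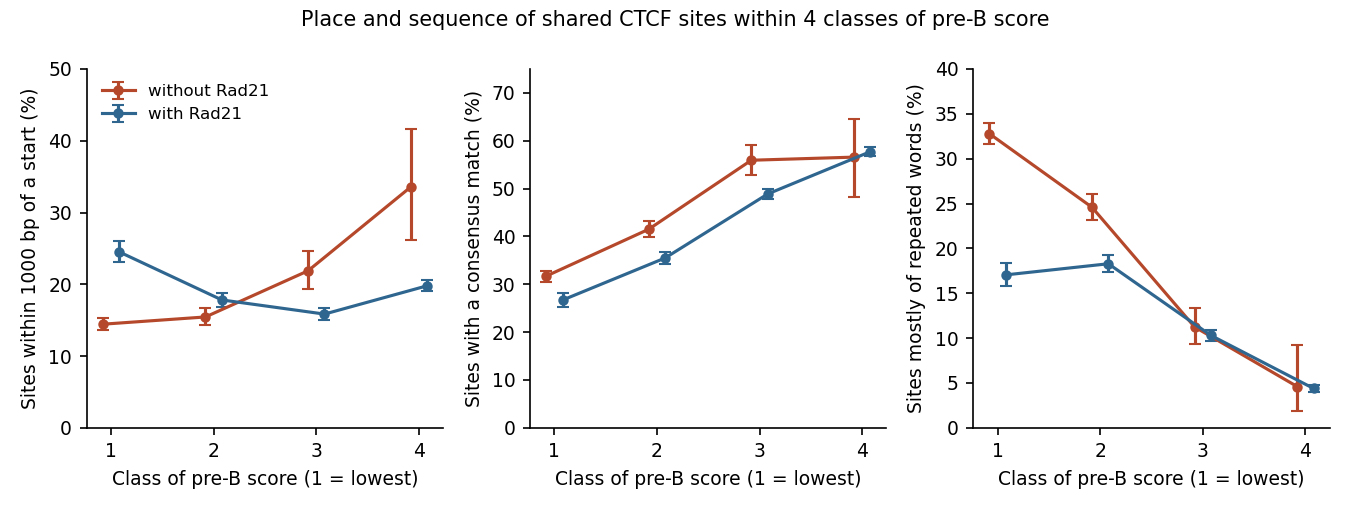
Share (vertical axes, %) of shared sites without Rad21 (red) and with Rad21 (blue) that lie within 1000 bp of an annotated start (left), hold a consensus match with at most 2 mismatches (middle) or have at least 50% of their 300 bases in repeated words (right), in 4 equal classes of pre-B score, with 1 the lowest. Bars are 95% exact intervals. The promoter share rose from 14.4 to 33.55% without Rad21, and with Rad21 it was highest, at 24.5%, in class 1.

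The 20 sites without Rad21 with the highest mean of both percentiles show the same makeup by name. A start of a gene lay inside 15 of them. They included Exd1, an exonuclease-domain gene, whose site on chromosome 2 from 119372607 to 119373818 scored above 98.4% of the pre-B and 99.3% of the IL7 list and lay 4157 bp from the nearest Rad21 peak. At Hif1an, which encodes the asparagine hydroxylase that restrains HIF, the site on chromosome 19 from 44636744 to 44637597 ranked above 98.0 and 98.1% of the lists and lay 17064 bp from Rad21. At Ext2, a heparan sulfate polymerase gene, the percentiles were 98.6 and 96.8 and Rad21 was 537 bp away. At Kdm1a, the histone demethylase LSD1, they were 97.7 and 96.2, and at Noc3l, a nucleolar factor, 94.4 and 93.8 with the nearest Rad21 peak 162012 bp away. Others of these starts included those of Mrps2 (mitochondrial ribosome), Psmd1 (proteasome), Pabpc4 (poly(A) binding), Pfdn4 (prefoldin), Ndufaf3 (complex I assembly), Ttc5, Zfp90 and BC003266. The top 20 also held sites away from starts, near Iqcf5 (17288 bp), Erc2 (71592 bp, in an intron), Arglu1 (294689 bp), Il20rb (65560 bp) and Megf6 (8466 bp, in an intron). Consensus matches were found at 11 of the 20, and at Exd1, Psmd1 and Kdm1a the best match had 4 mismatches.

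The 300 bases centred on the pre-B peak at Hif1an show what such a promoter looks like, with the consensus match, read on the other strand, in capitals and no annotated exon within it. The plus strand of chr19:44637021-44637320 is printed, 50% G+C with a CpG ratio of 0.694.
Hif1an promoter: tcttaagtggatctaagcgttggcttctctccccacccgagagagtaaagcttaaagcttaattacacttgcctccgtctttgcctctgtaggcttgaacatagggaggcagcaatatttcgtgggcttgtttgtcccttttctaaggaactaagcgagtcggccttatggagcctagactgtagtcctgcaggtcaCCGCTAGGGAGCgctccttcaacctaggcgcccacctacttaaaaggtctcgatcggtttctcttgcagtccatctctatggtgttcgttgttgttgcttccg

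Of 21418 protein-coding genes, 1533 (7.16%) had a shared site without Rad21 within 1000 bp of a start, and 4384 (20.5%) had one with Rad21. Lists of genes were read against these shares. Ribosomal protein genes had such a site without Rad21 at 10 of 75 (13.3%, 6.58 to 23.2%), among them Rpl32 (percentiles 79.2 and 71.4), Rps20 (68.75 and 57.75) and Rpl35 (49.9 and 72.65). Proteasome genes had one at 6 of 40 (15%, 5.71 to 29.8%), among them Psmd1 and Psmd3 (54.5 and 64.3). RNA polymerase II and Mediator genes had one at 4 of 41, with Med15 (65.4 and 62.9) and Polr2c (63.8 and 97.3), and mitochondrial ribosomal protein genes at 4 of 77. The intervals of the ribosomal and proteasome lists include the 7.16% of all protein-coding genes, and sites with Rad21 were present at 40% and 22.5% of these lists. The site of Rpl7a is also that of Med22.

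Of 43 B-lineage genes, 2 had one (4.65%, 0.568 to 15.8%): Pax5, the transcription factor that commits cells to the B lineage, at chromosome 4 from 44723658 to 44724426 with percentiles of 34.6 and 68.2, and Dok3, an adaptor of B cell receptor signalling, at 4.37 and 23.4. Sites with Rad21 were present at 13 of the 43. None of 39 T-lineage genes (upper limit 9.03%) and none of 29 genes of cohesin and CTCF (upper limit 11.9%) had a site without Rad21, while 6 and 11 had one with it. The intervals of these 3 lists include the 7.16% of all protein-coding genes. DNA repair genes had one at 3 of 36 (Fanca, Lig3 and Mre11a), and cell cycle and replication genes at 1 of 44, Mcm7, a subunit of the replicative helicase. Among 362 zinc finger genes named Zfp, 24 (6.63%) had one, near the share of all protein-coding genes, with Zfp90 (96.3 and 99.1) and Zfp169 (72.7 and 82.4) the highest. Olfactory receptor genes had one at 3 of 1106. Those of Olfr763 and Olfr9 are sites of equal width at equal distance from their starts, so reads may be split between copies. Keratin genes had one at 1 of 51, the pseudogene Krt72-ps.

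Within the antigen receptor loci, spanned by the annotated V genes, sites without Rad21 were present in numbers that differed between loci. At Igh, chromosome 12 from 114891502 to 117238672, 23 of 109 shared sites had none (21.1%, 13.9 to 29.96%). At Igk, chromosome 6 from 67505630 to 70654171, 15 of 59 had none (25.4%, 14.98 to 38.4%). At Tra/Trd, chromosome 14 from 53047603 to 54768876, 7 of 96 had none (7.29%, 2.98 to 14.4%). None was found among 12 shared sites at Trb and 4 each at Igl and Trg, where the upper limits are 26.5 and 60.2%. The Igh and Igk intervals include the 27.9% of all shared sites and those of Tra/Trd and Trb lie below it. At Tra/Trd, 50 of the sites with Rad21 had it in thymocytes only, so without the thymocyte lists they would count as lacking it. This was so of 6 sites at Igh, of 5 of the 12 at Trb and of none at Igk. The strongest Igh sites without Rad21 lay at V genes: near Gm16594 (percentiles 61.25 and 89.0, 13694 bp from Rad21), in the coding exon of Ighv12-3 (68.0 and 79.2) and in that of Gm16887 (63.6 and 76.5). At Igk the strongest lay near Igkv4-62 (49.97 and 68.4) and Igkv4-55 (39.98 and 72.1). Consensus matches were found at 15 of the 23 Igh sites and 3 of the 15 Igk sites. At Tra/Trd the strongest pair, at Gm16460 and Gm10888, had equal widths, an equal IL7 score and the same distance of 1153 bp to Rad21, and cannot be told apart from copies that share reads.

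A consensus match with at most 2 mismatches was found at 37.3% (36.4 to 38.2%) of sites without Rad21 and 46.2% (45.6 to 46.8%) of sites with it. In windows of 300 bases 2000 bp away the shares were 4.41 and 4.08%. Stronger sites hold more matches, and within the 4 classes of pre-B score the order was the other way in the lower 3: 31.7 against 26.7%, 41.5 against 35.5% and 55.9 against 48.9%, with 56.6 (48.3 to 64.6%) against 57.7% in the highest. In the top 10% of both lists a match was present at 13 of 28 sites without Rad21 (46.4%, 27.5 to 66.1%) and at 57.7% of sites with it. With all lists cut to an equal number of top peaks the shares were 57.5 (54.96 to 60.02%) and 59.1%, in the different set of sites described above. Counting from 1 at the 5′ end of the consensus, its base was present at position 6 in 97.8 and 97.9% of the matches without and with Rad21 and at position 11 in 98.6 and 98.9%. The groups were farthest apart at position 4, with 77.5 against 70.2%, and at position 9, with 63.5 against 70.6%.

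Repeated sequence was more frequent at sites without Rad21. A base was counted as repeated when it lay in a word of 15 bases found at least 100 times in the genome, either strand. At least 50% of the window was repeated at 27.9% (27.1 to 28.8%) of sites without Rad21 and 10.9% (10.5 to 11.3%) of sites with it, while the shares 2000 bp away were 18.7 and 17.8%. The share went down from 15.4% at sites with Rad21 in 1 list to 11.7% in 2 and 4.80% in 3. In the lowest of the 4 classes of pre-B score it was 32.8% without and 17.05% with Rad21, in the second 24.6 and 18.3%, in the third 11.25 and 10.3%, and in the highest 4.61 and 4.39%. The intervals were apart in the lower 2 classes and overlapped in the upper 2.

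The word GCCCTCTTCTGG was the most frequent match. It was present in the window of 2561 sites without Rad21 (23.3%, 22.5 to 24.1%) and of 2686 sites with it (9.48%, 9.14 to 9.83%), against 1.42% of windows 2000 bp away from either. Of these, 1796 without Rad21 and 1506 with it were at least 50% repeated. Among sites that did not hold the word, 15.1% (14.3 to 15.85%) without and 6.17% (5.88 to 6.47%) with Rad21 were so, so the higher share was present there too. Of all 5247 shared sites that hold the word, 48.8% (47.5 to 50.2%) lacked Rad21, against 24.7% of the other shared sites. Within the lowest of the 4 classes of pre-B score these shares were 77.2 and 61.6%, in the second 43.4 and 33.4%, in the third 11.15 and 9.82%, and in the highest 1.62 and 1.54%. GCCACCATGTGG was present at 6.90% of sites without Rad21 and 1.88% of sites with it, against 1.63 and 1.71% 2000 bp away. By contrast GCCCCCTGGTGG, a perfect match to the consensus, was present at 0.865% of sites without and 1.72% of sites with Rad21, and GCCCTCTGCTGG, with 2 mismatches, at 2.14 and 2.58%. No repeat annotation was used, so no site was assigned to a repeat family.

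**Figure D5:**
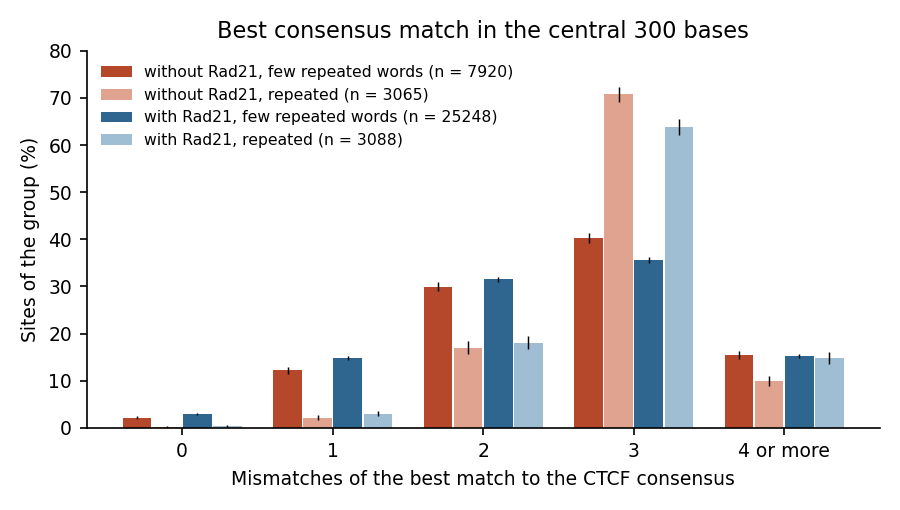
Share of sites (vertical axis, %) by the number of mismatches of the best consensus match in the central 300 bases, for sites without (red shades) and with Rad21 (blue shades), each divided into sites under 50% repeated (dark) and at least 50% repeated (pale). Bars carry 95% exact intervals. At 3 mismatches the repeated sites reached 70.8 and 63.8%, against 40.3 and 35.6% of the others.

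The comparison of consensus shares depended on the limit of mismatches. With 3 allowed, 86.1% of sites without Rad21 and 84.8% of sites with it had a match. Among sites under 50% repeated, the limit of 2 gave 44.3 and 49.2%, and that of 3 gave 84.6 and 84.8%. The difference thus closed there too, but the order was not turned round. Reads were kept when they mapped to up to 3 places, and the part of mapping in the calls over repeated sequence was not tested. Leaving repeated sites out, 23.9% of shared sites lacked Rad21 and their median pre-B percentile was 25.4 against 67.1.

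Short motifs of other factors were counted in the same windows on both strands. Sp1 letters (GGGCGG) were present at 27.6% (25.5 to 29.8%) of promoter sites without Rad21 and 29.4% with it, ETS letters (CCGGAAG) at 6.27 and 7.38%, and NRF1 letters (GCGCATGC) at 1.74 and 2.13%, against 8.24, 2.15 and 0.929% in windows 2000 bp from promoter sites without Rad21. The intervals of both groups overlap for these 3 motifs. RUNX letters (TGTGGTT) were present at 14.9% (14.2 to 15.6%) of sites without Rad21 and 8.33% with it, against 7.79% at 2000 bp. The difference was larger in repeated sequence. Among sites at least 50% repeated the shares were 33.5 and 21.8%, and among the others 7.66 (7.09 to 8.27%) and 6.69% (6.38 to 7.00%). RUNX letters were present at 845 of the 2561 sites without Rad21 with GCCCTCTTCTGG and at 649 of the 758 with GCCACCATGTGG. The last 5 bases of the latter word are also the first 5 of the RUNX letters, so these can be counted within it, as in the Alg8 sequence above. The E-box CAGCTG was present at 14.1 and 16.7%, AP-1 letters (TGACTCA) at 5.43 and 5.04%, and PU.1 letters (GAGGAAGT) at 2.00 and 2.09%. At 2000 bp from the sites without Rad21 these 3 shares were 14%, 5.04 and 2.01%. YY1 letters (AAGATGGCG) were at 0.665 and 0.656%, CRE letters (TGACGTCA) at 0.282 and 0.332%, and ZNF143 letters (ACTACAATT) at 0.228 and 0.124%. A match of letters is a description of sequence and not of binding.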

How the data were processed

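ChIP-seq peaks of CTCF (pre-B, IL7-cultured pro-B) and Rad21 (pre-B, DN, DP) were analysed, 1 library each. Per the study's methods, the authors took out duplicates and adapter sequence, mapped the remaining reads on mm9, allowing up to 3 locations for a read, and ran the peak caller on every library against its input. The 2 pre-B libraries share 1 input. Submitters' processing notes name Bowtie 0.12.9 and MACS 1.4.2, while the study's methods name another version of Bowtie. The deposited files give each peak's position and score, which the authors' MACS run derived from the p-value against input. The score grows with depth, so it was ranked only within a list. Read depth is unknown.

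Peaks overlapping by 1 bp were merged on chromosomes 1 to 19. The place of a site was taken from GENCODE vM1 on NCBIM37, the same assembly as mm9, with a promoter within 1000 bp of any annotated start and exon, intron or intergenic by the pre-B peak centre. Motifs were searched in 300 bases at that centre and 2000 bp above it in coordinates. Repeated words replaced marked repeats because the genome file marks none, a measure chosen after seeing that file. Shares carry exact Clopper-Pearson intervals and medians exact binomial order-statistic intervals, at 95%. The sites named are the 20 with the highest mean percentile, the 10 highest at protein-coding promoters, the 5 windows and 5 genes with the most sites, genes of fixed lists and sites in receptor loci. A few sites that meet this rule are not reported here by name. Members and lists were chosen with earlier results of these data known. Steps were tested on simulated data. Python 3.11.15, numpy 2.4.6, scipy 1.17.1, numba 0.67.0 and matplotlib 3.10.9 were used.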

Additional observations from a re-analysis of the deposited data

How the results depend on the processing

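Values below are, in turn and where they moved, the share of shared sites without Rad21, the median pre-B percentile, the median pre-B width, the promoter share and the consensus share. Scores of at least 100 gave 32.6%, 25.3, 560 bp, 17.4% and 41.4%. Lists cut to equal length gave 1499 sites, 21.4%, 43.4 (63.2 with Rad21), 806 bp (809 bp with Rad21), 31.9% (the order against sites with Rad21 turned round) and 57.5% (59.1% with Rad21). Most of these 1499 sites have a Rad21 peak in the full lists, and their percentiles were ranked within the cut lists. Counting Rad21 within 1000 bp gave 25.4%, 493 bp and 14.4%. Pre-B Rad21 alone gave 35.0%, 24.8, 512 bp and, turned round, 19.8%. Leaving out the DP list gave 34.4%, 24.7, 511 bp and, turned round, 19.8%. The percentile in the IL7 list was 55.2, the IL7 peak 407 bp and the merged site 543 bp wide. Promoters within 500 bp were 11.4%, within 2500 bp 25.4% and of protein-coding genes 13.7%. The consensus share was 10.97% with 1 mismatch, 86.1% with 3 (turned round) and 40.3% over whole pre-B peaks. Sites under 50% repeated, chosen after seeing the data, gave 23.9%, 25.4, 515 bp, 18.3% and 44.3%, and 84.6% with 3 mismatches. Overlap of 50%, leaving out the DN list, chromosome X and the IL7 peak centre moved none of these values beyond their intervals. The percentile stayed below that of sites with Rad21 in each alternative that recomputed it. Those of promoter definition, mismatch limit and motif window do not bear on it. Causes of the moved values were not tested. With 1 library per condition and unknown read depth, a missing Rad21 peak may be one not called at that depth. No paired analysis was possible because no condition has replicates and no test was run.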
